A study of Homo sapiens with 12 samples.

Results

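The comparison covered 6 of the 12 arrays of the series: 3 from human endometrial stromal cells given TNFα and IL1β together, and 3 from cells given IL1β alone. It asks what TNFα adds to or takes from the transcript levels of cells that already receive IL1β. The arrays were chosen by their titles, and no measured value entered the choice. The cells were T-HESC (ATCC CRL-4003), a single line of endometrial stromal cells immortalized with telomerase. All groups were grown to near confluence, kept without serum for 24 h and then treated for 48 h. The combined group received TNFα at 5 ng/ml and IL1β at 1 ng/ml, the IL1β group received 1 ng/ml of IL1β only, and the remaining groups of 3 arrays each received vehicle or 5 ng/ml of TNFα only. Every group held 1 culture from each of passages 13, 28 and 15, numbered replicates 1, 2 and 3. The replicates are therefore passages of 1 line, and the p-values below measure the spread between such cultures.

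TNFα and IL1β are inflammatory cytokines that bind unrelated receptors. Both receptors signal to the transcription factor NF-kB, which switches on chemokines, cytokines and its own inhibitors. TNFα also induces interferon-response genes in many cell types, partly through interferon that the cells secrete themselves. Endometrial stromal cells meet both cytokines around menstruation, at implantation and in endometriosis.

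CodeLink arrays of the human genome were read in 1 colour, with 1 RNA on each. The values are intensities scaled so that the median of an array lies near 1, so a log2 level of 0 is close to the array's median. Between 52944 and 53507 probes had a value above 0 on each array, and 53671 probes had enough values to be tested. Stromal fibroblast markers were present, since 11 of the 12 measured lay above the array median on each of the 6 arrays. Leukocyte markers reached that level for 3 to 5 of 14, endothelial markers for 2 or 3 of 11 and epithelial markers for 7 of 13, among them the keratin KRT19 at a log2 level of 5.00 with IL1β and 4.94 with both, while EPCAM lay below it at −1.76 and −1.71. The summed intensity of the stromal markers was 1132 to 1861 on the IL1β arrays and 1656 to 1820 on the combined arrays. For leukocyte markers these ranges were 9.80 to 14.2 and 14.4 to 14.8, for endothelial markers 16.8 to 19.4 and 18.8 to 19.7, and for epithelial markers 43.4 to 81.6 and 56.8 to 61.3. In a bulk sample, fewer cells of a type and less RNA per cell cannot be told apart.

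IL1β replicate 2 stood apart from the other 5 arrays. On the first principal component of all 12 arrays, which held 22.6% of the variance, it scored 53, while the other 5 scored between −33.8 and −21.3. The IL1β group was also more spread out than the combined group, with a median SD over probes of 0.32 against 0.17 on the log2 scale. Counts that depend on this array are given with and without it.

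No probe passed the test between the combined treatment and IL1β. Of 53671 probes, 0 reached an adjusted p under 0.05 in limma (0% called), the lowest adjusted p was 0.188, and 2347 probes (4.37%) had an unadjusted p under 0.05. With 3 arrays a side, the smallest two-sided p of an exact permutation test is 0.1, which no gene could bring under the threshold. Weighting the arrays by their own scatter, gene by gene, was an alternative chosen after the data were seen, and it called 50 probes (0.0932%), 40 higher and 10 lower. Counting each gene by its brightest probe, 25 genes were called, 21 higher (0.116% of genes) and 4 lower (0.0221%). Of the 50 probes 21 had no single gene, and the remaining ones were other probes of IFI27, ABI3BP, HKDC1 and PELO. The differences below are therefore measured differences between 3 and 3 arrays and not established changes.

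Among bright genes, BST2, CCL5, EBI3, GBP1P1, EPSTI1, DCLK3, MX1, ABI3BP, TMEM121B, IL6, TNFAIP6 and IL32 were 2.30 to 21.4 times higher with TNFα added, and no array of one group overlapped the other. On the lower side stood CRABP2, MEST, ACTC1, PRSS3, CAPG, ITGA4, CHN1, CRIP2, SNRPN, CENPH, LCE2A and NEK2. These 24 genes were picked by p and by separation, so their lack of overlap is part of the choice. Their adjusted p-values in limma ran from 0.188 to 0.924. Under the gene-by-gene weights 14 of all named genes were called, namely 10 of the higher genes (without TMEM121B and IL6) and CRABP2, MEST, ITGA4 and PRSS3.

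**Figure D1:**
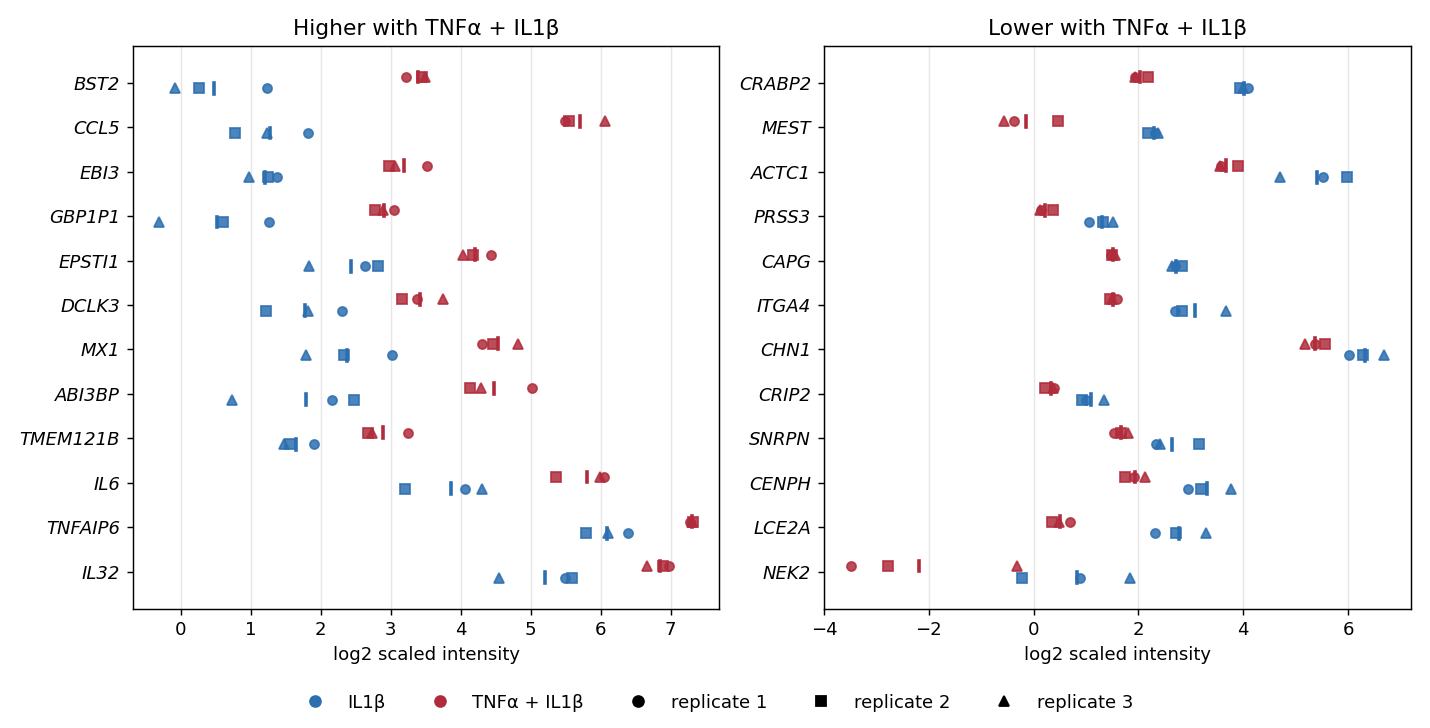
Log2 scaled intensity of 12 genes higher (left) and 12 genes lower (right) with TNFα + IL1β on each of the 6 arrays; marker shapes give the replicate and short vertical bars the group mean. The groups of each gene do not overlap, as the choice required, and the IL1β values spread more widely than the combined values for genes such as BST2 and GBP1P1.

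Among secreted signals, the chemokine CCL5, which attracts T cells and monocytes, had the largest difference of the higher genes. Its log2 level was 1.83, 0.78 and 1.24 in IL1β replicates 1 to 3 and 5.49, 5.55 and 6.06 with TNFα added. All 3 combined arrays lay far above all IL1β arrays. The difference was 4.42 (SE 0.60), or 21.4-fold, with an adjusted p of 0.206 in limma. CCL7, a monocyte chemoattractant, had levels of 4.46, 3.29 and 3.97 with IL1β and 6.17, 5.17 and 5.95 with both. Its groups did not overlap and differed by 1.86 (SE 0.48), adjusted p = 0.777 in limma.

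Of 10 CC chemokines measured, 4 (CCL5, CCL8, CCL11 and CCL7) were higher on every combined array and 1 (CCL26) lower. Over all 18106 genes tested, 9.65% were higher without overlap and 5.96% lower, which is the background for every such count below that uses all 6 arrays. With 1 array left out the background is 13.2% to 23.1% higher and 8.38% to 15.5% lower. CCL8, CCL11 and CCL26 were named after their values were seen. Among 11 CXC and CX3C chemokines, mostly neutrophil and T cell attractants, 5 were higher without overlap and 0 lower. The median difference over these 11 was 0.81 on the log2 scale against 0.06 over all genes, but it was 0.41 without IL1β replicate 2, 0.45 and 0.52 without combined replicates 2 and 3, and 1.06 without IL1β replicate 1. CXCL3 differed by 1.08 (SE 0.40) and CXCL5 by 1.28 (SE 0.59), both at an adjusted p of 1 in limma. CXCL8, the main neutrophil chemokine, was near 9 on every array of both groups and is among those 5. It stood at 9.13, 8.96 and 9.22 with IL1β and at 9.36, 9.48 and 9.33 with both, without overlap. The difference was 0.28 (SE 0.57), and this SE shares the wider spread of the TNFα-alone arrays (SD 1.46).

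The cytokine list held 23 measured genes, of which 8 were higher without overlap and 0 lower. IL6, a cytokine of fever and the acute phase, had log2 levels of 4.06, 3.21 and 4.31 with IL1β and 6.05, 5.36 and 5.99 with both. Every combined array was above every IL1β array, by 1.94 on average (SE 0.38, adjusted p = 0.441 in limma). EBI3, a subunit shared by interleukin-27 and interleukin-35, stood at 1.38, 1.25 and 0.98 with IL1β. With TNFα added it stood at 3.53, 2.98 and 3.07, a difference of 1.99 (SE 0.31, adjusted p = 0.237 in limma) with narrow spread in both groups. IL32, an inflammatory cytokine found in humans and not in rodents, had levels of 5.49, 5.59 and 4.54 with IL1β and 6.97, 6.90 and 6.66 with both. The IL32 groups did not overlap and differed by 1.64 (SE 0.33, adjusted p = 0.479 in limma).

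In the receptor pathways the differences were smaller. TNFRSF1A, the receptor that carries most TNFα signals, differed by 0.30 (SE 0.69), and the sign turned to −0.25 without IL1β replicate 2. TNFRSF1B, the other TNFα receptor, differed by 0.78 (SE 0.47) with overlapping groups. The TNF transcript itself was 2.71 ± 0.19 with IL1β and 2.78 ± 0.07 with both (SD, n = 3 each), which did not differ beyond that spread. In the TNF receptor pathway 8 of 25 members were higher without overlap and 0 lower. They included the adaptor TRAF1, at 1.06 (SE 0.49), and TRAF3, a brake on non-canonical NF-kB signalling, at 0.84 (SE 0.46), both at an adjusted p of 1 in limma. A dimmer TRAF3 probe differed by 0.41 (SE 0.49) with overlapping groups. In the IL1 receptor pathway the groups of all 14 measured members overlapped. Without IL1β replicate 1, 4 of the 14 (28.6%) were higher without overlap, against 23.1% of all genes. Its members of lowest p, the kinases IRAK2 and IRAK3, differed by 0.37 (SE 0.24) and 0.59 (SE 0.54). A dimmer IRAK3 probe differed by 0.85 (SE 0.38) without overlap.

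The NF-kB list, which holds its subunits, direct targets and feedback inhibitors, had 16 of 24 measured members higher without overlap and 0 lower. Its median difference was 0.56. None of the 24 passed the test. Leaving out any one of the 6 arrays gave 16 to 20 members higher and 0 lower, and a median of 0.38 (without IL1β replicate 2) to 0.71. TNFAIP6, a secreted protein that binds hyaluronan, had levels of 6.39, 5.79 and 6.10 with IL1β and 7.28, 7.32 and 7.30 with both. The combined arrays were nearly identical to one another and all above the IL1β arrays, by 1.20 (SE 0.24, adjusted p = 0.479 in limma). SOD2, the mitochondrial superoxide dismutase, had levels of 5.88, 5.66 and 5.25 with IL1β and 6.83, 7.02 and 6.82 with both, a difference of 1.29 (SE 0.29, adjusted p = 0.657 in limma). A dimmer SOD2 probe differed by 0.21 (SE 0.18). Named after their values were seen, the inhibitors TNFAIP3 and TNIP3 differed by 1.83 (SE 0.46) and 1.76 (SE 0.42), and the subunit NFKB2 by 1.22 (SE 0.47). Smaller differences, named in the same way, were those of the inhibitors NFKBIB (0.37, SE 0.27) and NFKBIE (0.38, SE 0.36), without overlap. RELA (0.33, SE 0.46), ICAM1 (0.17, SE 0.20), VCAM1 (0.15, SE 0.18) and IER3 (0.09, SE 0.31) had overlapping groups.

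Interferon-response genes made up the largest group on the higher side. Of 44 measured, 30 were higher without overlap (68.2%) and 1, PARP14, lower. The median difference of the 44 was 0.66. None passed the test, and 5 were called under the gene-by-gene array weights. Leaving out any one of the 6 arrays gave 30 to 37 members higher and 1 lower, with medians of 0.57 to 0.75, while the share of all genes that were higher without overlap rose to between 13.2% and 23.1%. Relative to the mean of the IL1β arrays, the median member stood at 0.27, −0.14 and −0.10 on the IL1β arrays and at 0.62, 0.60 and 0.72 on the combined arrays.

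BST2, or tetherin, is a membrane protein that holds budding enveloped viruses at the cell surface. Its log2 level was 1.23, 0.26 and −0.08 with IL1β and 3.23, 3.45 and 3.50 with both. The combined arrays lay close together and the IL1β arrays were scattered, with replicate 1 the highest of them. The difference was 2.92 (SE 0.39), or 7.55-fold, with an adjusted p of 0.188 in limma. EPSTI1, an interferon-inducible gene first described in breast epithelium grown with stroma, had levels of 2.64, 2.82 and 1.84 with IL1β and 4.43, 4.18 and 4.03 with both, a difference of 1.78 (SE 0.30, adjusted p = 0.293 in limma). MX1, an antiviral GTPase, had levels of 3.02, 2.33 and 1.79 with IL1β and 4.31, 4.47 and 4.83 with both, and differed by 2.15 (SE 0.39, adjusted p = 0.373 in limma). Its groups did not overlap. Other members, named after their values were seen, were OASL at 3.11 (SE 0.75), IFI44L at 3.00 (SE 0.61) and IFI27 at 2.32 (SE 0.51). With IL1β the mean of OASL lay far below the array median, at −2.43, and with both it was 0.68.

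The promoters of BST2 and EPSTI1 are shown as examples from the interferon-response list, and both hold a match to the motif given below. Each is the 250 bases before the gene's start, read 5′ to 3′ on the gene's strand from RefSeq (GRCh38.p14). Capitals mark matches to GAAANNGAAA, the paired half-sites of an interferon-stimulated response element, searched on both strands. BST2 lies on the minus strand (chr19:17405631-17405880) and EPSTI1 also on the minus strand (chr13:42992242-42992491).
BST2: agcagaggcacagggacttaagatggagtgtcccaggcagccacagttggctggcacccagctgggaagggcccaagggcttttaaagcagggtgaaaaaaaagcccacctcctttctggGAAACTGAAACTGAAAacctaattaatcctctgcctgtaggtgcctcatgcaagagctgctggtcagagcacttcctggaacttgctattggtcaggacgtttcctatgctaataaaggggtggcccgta
EPSTI1: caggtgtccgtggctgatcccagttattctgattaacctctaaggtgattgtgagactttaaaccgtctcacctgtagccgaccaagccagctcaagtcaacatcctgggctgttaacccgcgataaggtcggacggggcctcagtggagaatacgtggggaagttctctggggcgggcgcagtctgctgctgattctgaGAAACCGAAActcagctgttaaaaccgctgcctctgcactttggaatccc
In BST2 the capitals join 2 overlapping matches, from 130 to 121 and from 124 to 115 bases before the start, and in EPSTI1 there is 1 match from 50 to 41 bases before it. Of the 44 interferon-response genes, 38 had a promoter in the table, and 23 of those (60.5%) held such a match in the 250 bases before the start. Among all 27305 promoters of that length 3.07% did. The list was made of genes known to respond to interferon, so this share describes the list and not these arrays. PARP14, the lower member, held a match, while MX1, on the higher side, held none. A match describes the letters and does not show binding. The lack of a match in these bases does not show that a gene has no such site.

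Promoters of IL32 and IL6 are shown in the same way as examples from the cytokine list, and both hold a match to the motif used here. It is GGGANTTTCC, 1 form of the NF-kB motif, searched on both strands, with matches in capitals. Both genes lie on the plus strand (chr16:3065153-3065402 and chr7:22726950-22727199).
IL32: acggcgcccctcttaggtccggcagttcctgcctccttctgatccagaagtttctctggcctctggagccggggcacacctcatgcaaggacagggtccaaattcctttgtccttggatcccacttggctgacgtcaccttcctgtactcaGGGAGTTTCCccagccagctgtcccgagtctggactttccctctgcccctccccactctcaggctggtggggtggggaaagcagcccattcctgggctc
IL6: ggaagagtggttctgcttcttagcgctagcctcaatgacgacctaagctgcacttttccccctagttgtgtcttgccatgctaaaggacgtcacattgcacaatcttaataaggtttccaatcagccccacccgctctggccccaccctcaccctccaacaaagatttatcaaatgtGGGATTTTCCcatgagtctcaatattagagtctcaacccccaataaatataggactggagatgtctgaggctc
The match lay from 99 to 90 bases before the start in IL32 and from 73 to 64 in IL6. The motif occurred in 0.546% of all promoters, in 4 of the 20 NF-kB list members with a promoter in the table, and in 4 of 9 CXC and CX3C chemokines. It was also found in 3 of the 38 interferon-response promoters. The NF-kB list was chosen to hold direct targets, so its share describes the list and not these arrays. TNFAIP6, SOD2, TNIP3 and NFKB2 held no match, and CRABP2, on the lower side, matched neither motif. Of the 56 named genes with a promoter sequence, 4 matched the NF-kB motif and 6 the interferon motif.

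**Figure D2:**
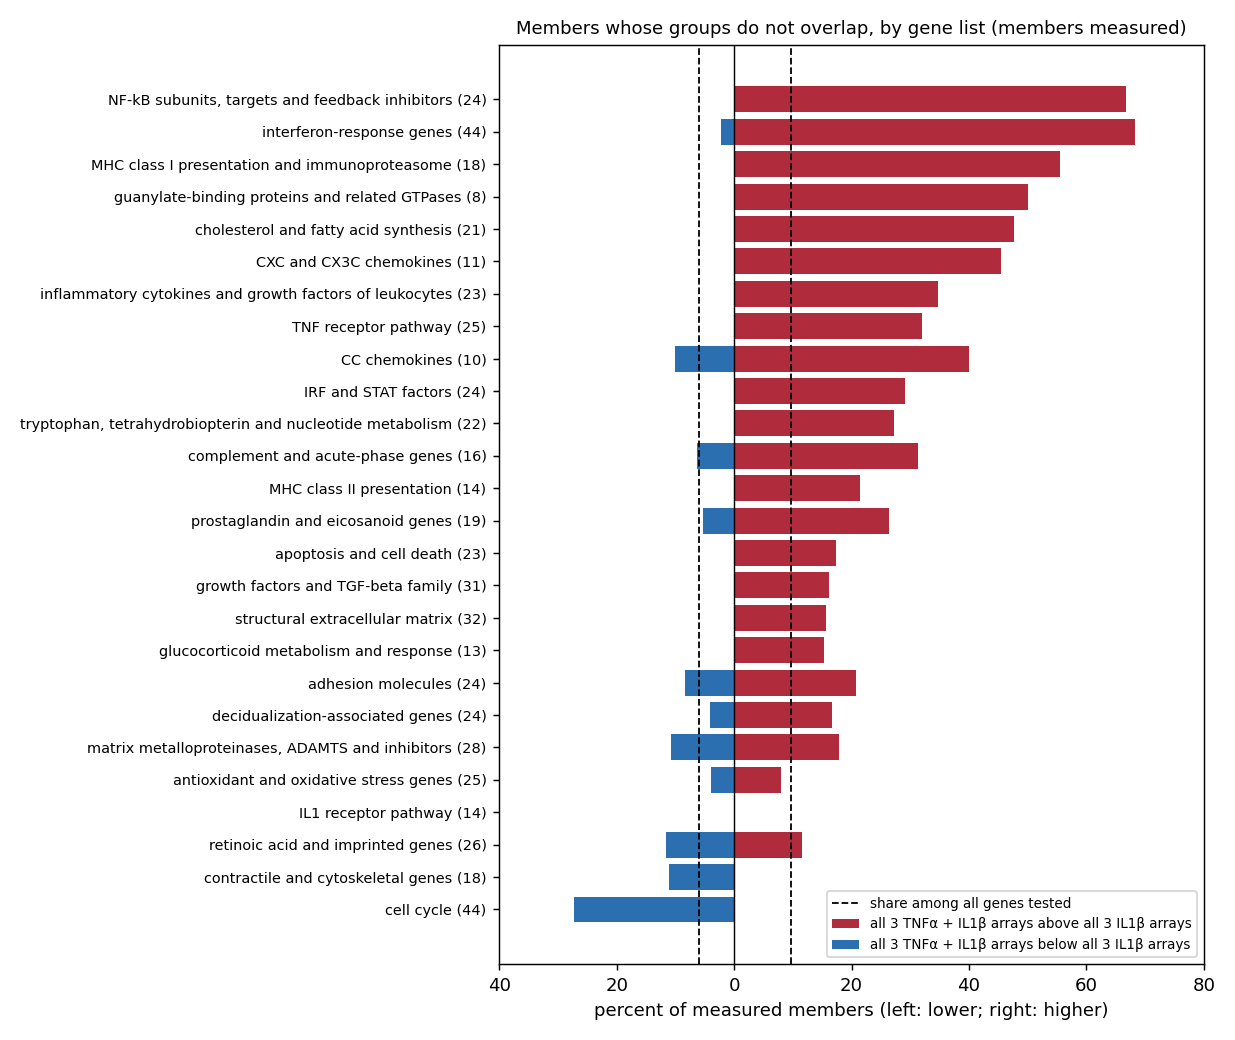
Percent of the measured members of 26 gene lists whose 3 TNFα + IL1β arrays all lay above (right, red) or all below (left, blue) the 3 IL1β arrays; dashed lines mark the 9.65% and 5.96% of all genes tested. The interferon and NF-kB lists have the highest bars on the right and the cell cycle list the longest on the left.

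The lists of guanylate-binding proteins and of MHC class I presentation leaned the same way. Of 8 guanylate-binding proteins and related GTPases, 4 were higher without overlap. GBP2, GBP4 and GBP6 differed by −0.03, −0.60 and −0.53 with overlapping groups. GBP1P1, a pseudogene of the antimicrobial GTPase gene GBP1, had levels of 1.26, 0.61 and −0.30 with IL1β and 3.06, 2.78 and 2.89 with both. Its groups did not overlap and differed by 2.38 (SE 0.38, adjusted p = 0.237 in limma), and a dimmer probe of it by 1.15 (SE 0.37). GBP1 differed by 0.80 (SE 0.25), and whether the GBP1P1 probes also bind its transcript was not tested. In the list of MHC class I presentation 10 of 18 members were higher without overlap and 0 lower, with a median of 0.40. HLA-G, a class I molecule known from the trophoblast, differed by 0.52 (SE 0.16) and HLA-F by 0.65 (SE 0.23). In the class II list 3 of 14, namely CTSS, RFX5 and CIITA, were higher and 0 lower. CTSS, a protease that processes the invariant chain, differed by 1.25 (SE 0.30). The groups of every HLA-D gene measured overlapped. The count of higher members was 5 without combined replicate 1, and 6 with 2 lower without IL1β replicate 3. The list of IRF and STAT transcription factors also held interferon receptors, IFNB1, JAK kinases and SOCS inhibitors. Of its 24 members 7 were higher without overlap, among them the receptor genes IFNAR1 and IFNAR2, and 0 lower. IRF7, which amplifies interferon production, differed by 1.28 (SE 0.35) and STAT4 by 1.25 (SE 0.36). Complement and acute-phase genes had 5 of 16 higher and 1 lower, and 8 higher without combined replicate 2. C1QTNF1, a C1q-related protein and not itself a complement component, differed by 1.77 (SE 0.46). CFB, a protease of the alternative complement pathway, differed by 2.37 (SE 0.77) with overlapping groups. C1R and C1S, named after their values were seen, differed by 1.47 (SE 0.79) and 1.34 (SE 0.70) without overlap. C3, named in the same way, differed by 0.38 (SE 0.38) with overlapping groups. All of these had adjusted p-values of 0.777 or more in limma except GBP1P1 and CTSS (0.726).

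Genes of hormone and lipid metabolism were also among the higher ones. HSD11B1 encodes the enzyme that turns cortisone into active cortisol. Its log2 level was 5.13, 3.87 and 4.03 with IL1β and 6.30, 6.72 and 6.76 with both, so all combined arrays were above all IL1β arrays. The difference was 2.25 (SE 0.47), or 4.75-fold, at an adjusted p of 0.585 in limma, and a dimmer probe gave 2.33 (SE 0.45). HSD11B2, the opposing enzyme, lay below the array median and differed by 0.96 (SE 0.33). PTGES, which makes prostaglandin E2, had levels of 2.71, 1.70 and 1.55 with IL1β and 3.40, 3.72 and 4.0 with both. Its groups did not overlap and differed by 1.72 (SE 0.37, adjusted p = 0.604 in limma). Of 19 prostaglandin and eicosanoid genes 5 were higher without overlap and 1 lower, and PTGS2, the inducible cyclooxygenase, differed by 0.15 (SE 0.25) with overlapping groups.

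Cholesterol and fatty acid synthesis genes had 10 of 21 members higher without overlap and 0 lower, with a median difference of 0.55. INSIG1, a sterol-sensing regulator, differed by 0.91 (SE 0.32) and LSS, lanosterol synthase, by 1.02 (SE 0.38), both at an adjusted p of 1 in limma. The size rested partly on IL1β replicate 3, the lowest array for these genes, since the median was 0.13 without it. On the IL1β arrays the median member stood at 0.17, 0.03 and −0.32 relative to their mean, and on the combined arrays at 0.59, 0.43 and 0.47.

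Other higher genes came from no single list. ABI3BP, an extracellular matrix protein, had levels of 2.16, 2.48 and 0.73 with IL1β and 5.02, 4.14 and 4.30 with both, a difference of 2.69 (SE 0.51, adjusted p = 0.429 in limma). Of its 3 other probes 1 gave 2.12 (SE 0.33), another 1.21 (SE 0.37), and the remaining one 0.90 (SE 0.48) with overlapping groups. DCLK3, a kinase of the doublecortin family, had levels of 2.31, 1.21 and 1.82 with IL1β and 3.37, 3.16 and 3.74 with both, a difference of 1.64 (SE 0.28, adjusted p = 0.310 in limma). A dim DCLK3 probe differed by 0.05 (SE 0.42). ADORA2A, an adenosine receptor that restrains inflammation, differed by 1.56 (SE 0.37), FGF2, a stromal growth factor, by 0.94 (SE 0.23) and ICAM2, an adhesion molecule, by 1.20 (SE 0.27), all 3 without overlap.

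On the lower side, CRABP2 and MEST had the lowest p-values. CRABP2 carries retinoic acid to its nuclear receptors. Its log2 level was 4.09, 3.93 and 3.99 with IL1β and 1.94, 2.19 and 1.94 with both. Both groups were tight and far apart, with a difference of −1.98 (SE 0.28), or 3.95-fold lower, at an adjusted p of 0.188 in limma. MEST, an imprinted gene expressed from the paternal allele, had levels of 2.32, 2.18 and 2.37 with IL1β and −0.37, 0.47 and −0.56 with both. It was lower on all combined arrays, by −2.45 (SE 0.36) on the log2 scale, at an adjusted p of 0.210 in limma. SNRPN, another imprinted gene, differed by −0.97 (SE 0.25, adjusted p = 0.777 in limma). Of 26 genes in the retinoic acid and imprinting list these 3 were lower without overlap and 3 were higher.

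ACTC1, the cardiac form of α-actin, had levels of 5.52, 5.99 and 4.70 with IL1β and 3.58, 3.90 and 3.55 with both, a difference of −1.73 (SE 0.33, adjusted p = 0.429 in limma). CAPG, which caps actin filaments, had levels of 2.70, 2.83 and 2.64 with IL1β and 1.47, 1.49 and 1.55 with both, a difference of −1.22 (SE 0.27, adjusted p = 0.633 in limma). They were the only 2 of 18 contractile and cytoskeletal genes without overlap, both lower. ITGA4, the integrin subunit that binds VCAM1 and fibronectin, differed by −1.56 (SE 0.35, adjusted p = 0.657 in limma), and a probe of it far below the array median by 0.00 (SE 0.61). PRSS3, a trypsinogen, differed by −1.10 (SE 0.23), CHN1, a Rac regulator, by −0.96 (SE 0.22) and CRIP2 by −0.76 (SE 0.18). A CHN1 probe far below the array median differed by 0.21 (SE 0.24) with overlapping groups. KRT18, a keratin that endometrial stromal cells can express, differed by −0.70 (SE 0.26) without overlap. The protease ADAMTS18 lay far below the array median and differed by −2.74 (SE 0.45, adjusted p = 0.312 in limma). Of 28 matrix proteases and inhibitors 5 were higher without overlap and 3 lower.

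Cell cycle genes formed the one large list that leaned lower. Of 44 measured, 12 were lower without overlap (27.3%) and 0 higher, with a median difference of −0.62, and none passed the test. IL1β replicate 2 decided much of this count. Without it 30 of 44 were lower without overlap and 0 higher, with a median of −1.0, while 15.5% of all genes were then lower without overlap. Without IL1β replicate 3 the median was −0.24, with 12 members lower and 1 higher, and without IL1β replicate 1 the counts were 14 and 3. Relative to the mean of the IL1β arrays, the median cell cycle gene stood at −0.10, −0.67 and 0.84 on IL1β replicates 1 to 3 and at −0.73, −0.63 and −0.49 on the combined arrays. IL1β replicate 2 thus lay within the range of the combined arrays, and replicate 3 far above it.

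CCNB2, a mitotic cyclin, had log2 levels of 1.66, 1.78 and 3.13 with IL1β and 0.51, 0.14 and 1.00 with both, a difference of −1.64 (SE 0.55). BIRC5, the chromosomal passenger protein survivin, had levels of 3.01, 2.53 and 4.27 with IL1β and 1.55, 1.16 and 1.99 with both, a difference of −1.70 (SE 0.60). Both were lower on every combined array, with replicate 3 the highest in each group, and both had an adjusted p of 1 in limma. CENPH, a kinetochore protein, differed by −1.37 (SE 0.38), and NEK2, a centrosome kinase, by −3.03 (SE 0.86). NEK2 varied widely, from −3.49 to −0.32 on the combined arrays and from −0.22 to 1.85 on the IL1β arrays. MKI67, a proliferation marker named after its value was seen, differed by 0.08 (SE 0.29) with overlapping groups.

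Of 32 structural matrix genes 5 were higher without overlap and 0 lower, but without IL1β replicate 2 the counts were 5 and 6. Of 24 decidualization-associated genes 4 were higher and 1 lower, of 25 antioxidant genes 2 and 1, and of 23 apoptosis genes 4 and 0. The growth factor list had 5 of 31 higher and 0 lower, the adhesion list 5 of 24 (20.8%) higher and 2 lower, and the glucocorticoid list 2 of 13 higher and 0 lower. In tryptophan, tetrahydrobiopterin and nucleotide metabolism 6 of 22 (27.3%) were higher and 0 lower. Most of these small counts moved with single arrays, as did the background, which was 23.1% higher without IL1β replicate 1 and 15.5% lower without IL1β replicate 2. The counts of higher members moved little in the tryptophan list (6 to 8 with 1 array left out) and in the adhesion list (5 to 6). Without IL1β replicate 1 the growth factor list had 11 higher, the matrix list 12, the decidualization list 8, the glucocorticoid list 5 and the IRF and STAT list 12. Without IL1β replicate 2 the adhesion list had 9 lower, the protease and the retinoic acid and imprinting lists 7 each, and the growth factor and prostaglandin lists 5 each. Among control genes, ACTB differed by 0.05 (SE 0.32) and GAPDH by −0.20 (SE 0.15). TERT, the gene of the immortalizing enzyme, lay below the array median in both groups (−1.20 ± 0.30 and −1.13 ± 0.15, SD, n = 3 each), and whether its probe detects the introduced copy was not tested.

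**Figure D3:**
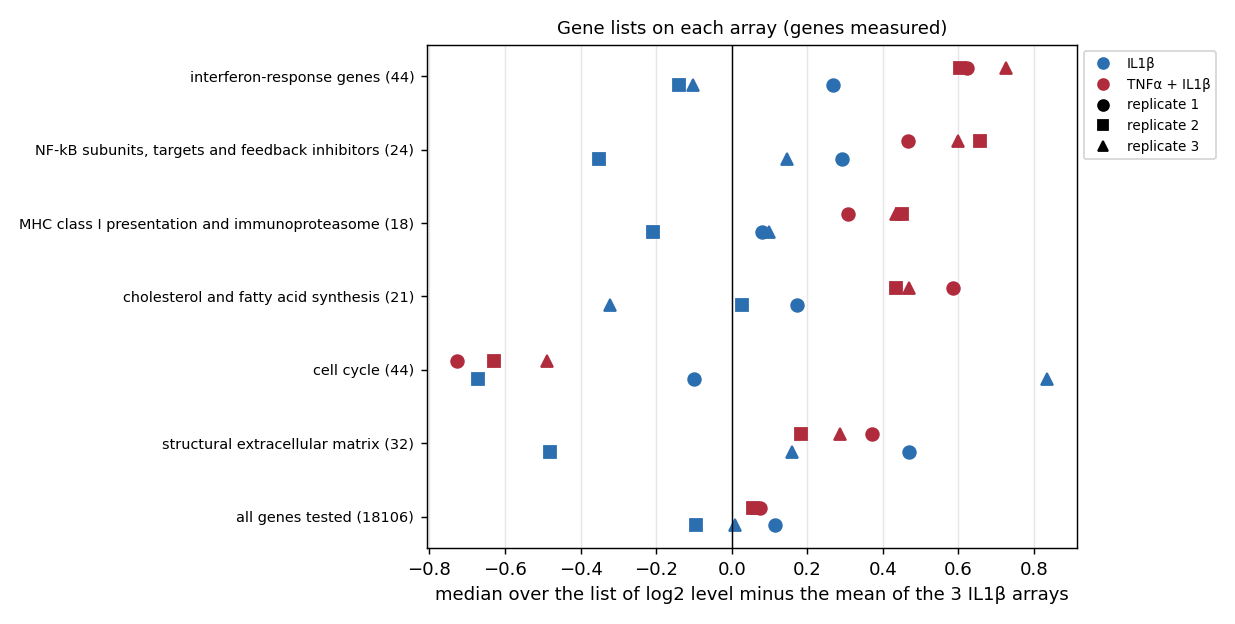
Median over the genes of 6 lists, and over all genes tested, of the log2 level minus the mean of the 3 IL1β arrays, for each of the 6 arrays (blue IL1β, red TNFα + IL1β; shapes give the replicate). The interferon, NF-kB, MHC class I and cholesterol lists separate the groups, whereas for cell cycle genes an IL1β array lies among the combined arrays, and for matrix genes IL1β arrays lie on both sides of them.

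The response to TNFα could be set beside that without IL1β, since TNFα alone against vehicle uses the other 6 arrays and shares none with this comparison. TNFα alone called 25 probes in limma (0.0466% of those tested), and 14 genes were called through their brightest probe. The count of probes was 13 with the passage as a block, 0 without passage replicate 1 or 2, and 1 without passage replicate 3. It was 0 without the 3 arrays that lay apart, 0 with array weights by restricted likelihood and 48 with gene-by-gene weights. It was 11 to 22 when 1 array of the IL1β or combined groups was left out, which changes only the shared estimate of spread, and 57 with a trended robust prior. On top of IL1β 13 of these 14 genes had groups that did not overlap, in the same direction as with TNFα alone, and CCL2 had overlapping groups. The shared spread favours calls of genes whose IL1β and combined arrays vary little. Their lack of overlap is therefore partly fixed by the choice. The measured difference was smaller on top of IL1β than on vehicle for all 14. They were chosen for their TNFα effect on vehicle, so this order is partly fixed by the choice. All 24 genes named for p above had the same sign in both settings. For some of them the difference without IL1β was small beside its SE, as for DCLK3 (0.11, SE 0.28) and NEK2 (−0.69, SE 0.86). The share of same signs over all genes was not counted.

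The test of the difference between the 2 TNFα effects called 0 probes in limma (0% of 53671; lowest adjusted p 0.843; 1927 at an unadjusted p under 0.05). No gene is thus shown to respond differently to TNFα with IL1β present. The genes of lowest p among bright ones were SOD2, IL32, CCL2 and HSD11B1, each at an adjusted p of 0.843. Their IL1β arrays all lay above their vehicle arrays, a trait that a negative difference of effects partly selects.

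SOD2 was 1.70, 2.17 and 2.47 with vehicle and 6.18, 5.57 and 6.47 with TNFα alone, a difference of 3.96 (SE 0.29). On top of IL1β it was 1.29, so the 2 effects differed by −2.67 (SE 0.41). HSD11B1 was 0.00, −1.39 and −0.21 with vehicle and 5.65, 4.43 and 5.51 with TNFα, a difference of 5.73 (SE 0.47) against 2.25 with IL1β. Its highest levels in the series were on the 3 combined arrays. CCL2, a monocyte chemoattractant, was 1.08, 1.59 and 2.42 with vehicle and 4.87, 4.12 and 4.90 with TNFα, a difference of 2.93 (SE 0.38). With IL1β it was 4.58, 4.66 and 3.88, and with both 4.13, 4.74 and 4.65, a difference of 0.13 (SE 0.38). The levels of CCL2 with TNFα, IL1β or both all overlapped.

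CXCL8 followed a similar course, from 4.51 ± 0.36 with vehicle to 8.50 ± 1.46 with TNFα, 9.10 ± 0.13 with IL1β and 9.39 ± 0.08 with both (SD, n = 3 each). Its TNFα effect was 3.99 (SE 0.57) without IL1β and 0.28 with it. IL32 was highest with TNFα alone, at 7.58, 7.59 and 7.62, above all 3 combined arrays. CTSS, at 3.38 (SE 0.30) without IL1β and 1.25 with it, reached like levels with TNFα alone and with both.

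A further set had TNFα differences of like size in both settings. BST2 differed by 3.09 (SE 0.39) without IL1β and 2.92 with it, and the effects differed by −0.18 (SE 0.55). For GBP1P1 the values were 2.80 and 2.38, for EPSTI1 1.73 and 1.78, for ABI3BP 2.76 and 2.69, and for MEST −2.91 and −2.45. CRABP2 differed by −2.62 (SE 0.28) and −1.98. It stood at 5.15 ± 0.05 with vehicle, 4.01 ± 0.08 with IL1β, 2.53 ± 0.65 with TNFα and 2.02 ± 0.14 with both (SD, n = 3 each), and TNFα and combined arrays overlapped. A p above the threshold does not show that the effects were equal.

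Some genes had a larger measured TNFα difference with IL1β present. DCLK3 differed by 0.11 (SE 0.28) without IL1β and by 1.64 with it, and the effects differed by 1.53 (SE 0.40). For IL6 the values were 0.74 (SE 0.38) and 1.94, for TNFAIP6 0.42 (SE 0.24) and 1.20, and for STAT4 −0.38 (SE 0.36) and 1.25. In each of IL6, TNFAIP6 and DCLK3 all 3 combined arrays lay above the other 9 arrays of the series. None of these differences between effects passed the test.

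**Figure D4:**
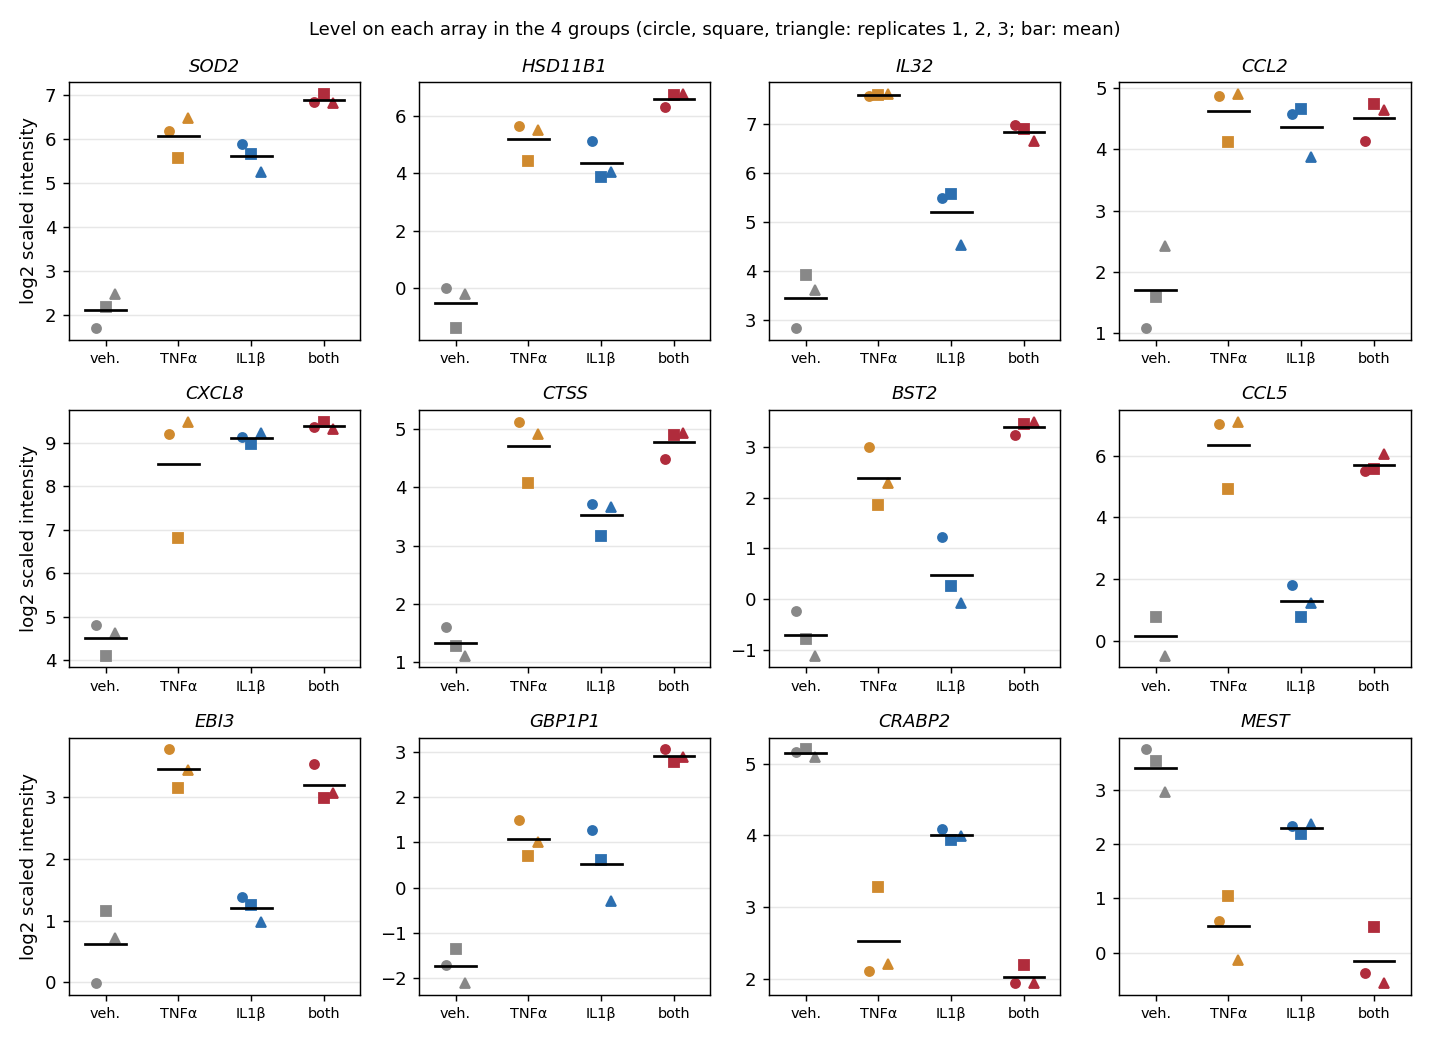
Log2 scaled intensity of 12 genes on the 12 arrays (veh., vehicle; both, TNFα + IL1β); shapes give the replicate and bars the group mean. CCL2 and CXCL8 have like levels in the groups with IL1β, whereas BST2, GBP1P1, CRABP2 and MEST separate the combined arrays from IL1β alone; for CCL5 1 vehicle array has no value.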

How the data were processed

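Total RNA was labelled and hybridized to single-colour CodeLink arrays, 1 array per culture, per the labels' protocols. The authors deposited linear intensities; that they were scaled to each array's median was read from the values, and the image analysis behind them is not given in the sources used here. The missing code −9999 (0.716% of values) and values at or below 0 (1.10%) were set to missing, and log2 was taken. Array medians differed by at most 0.05, so nothing was rescaled. Probes needed a value on 2 arrays of every group; 53671 of 54359 had one. The probe table gave 1 gene to 23472 probes, several to 905 and none to 29982, and symbols were updated by Entrez identifier through RefSeq (GRCh38.p14). Where several probes named 1 gene and no other, the one of highest mean over the 12 arrays stood for it. The number of arrays limits the precision. IL1B and IL1R1 are not analysed here.

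Group means of the 12 arrays were fitted with limma 3.58.1 in R 4.3.3 (8 residual degrees of freedom), with two-sided tests, Benjamini-Hochberg adjustment over all probes and calls at an adjusted p under 0.05; the script was tested on simulated data. Differences are in log2 units with limma's SE. Replicate numbers mark shared passages, per the labels; deviations of same-numbered arrays correlated at −0.02, 0.01 and 0.05. Members and lists were chosen with earlier results of these data known. Named genes were the 12 per direction of lowest p among genes without overlap and brighter than the median of all probes (none being called), the 2 of lowest p per list, the 4 of lowest p for the difference of effects, and fixed controls. Alternatives changed scaling, filters, prior, weights, samples and block.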

Additional observations from a re-analysis of the deposited data

How the results depend on the processing

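With TNFα added to IL1β, 0 probes were called in limma, and also 0 with the replicate block (passage; 2359 at an unadjusted p under 0.05), the 6 arrays alone (3529), quantile normalization, median centring, an offset, 1 probe per gene, dim or incomplete probes removed, and a trended robust prior. Array weights called 129 probes by restricted likelihood, a fit that did not converge, and 50 gene by gene, the latter chosen after seeing the data; list members called were then 23 and 13 in place of 0. Leaving out single arrays called 0 to 4 probes: 1 without IL1β replicate 3 (TM2D1) and 4 without combined replicate 3 (SLC9C1 and 3 without a single gene), and leaving out a passage called 0. Without the 3 arrays that lay apart it was 1. The difference of effects called 0 to 2 probes with single arrays left out, 2 without combined replicate 3, and 0 otherwise. The cause was not tested. Of 76 named genes, 5 changed sign under some setting, all uncalled: TNF (leave-out range −0.06 to 0.16; −0.04 without IL1β replicate 2 or the 3 arrays apart, −0.06 without passage replicate 2), TNFRSF1A (−0.25 to 0.65; −0.05 and −0.06 with weights, −0.25 without IL1β replicate 2 or the 3 arrays, −0.20 without passage replicate 2), ACTB (−0.08 with either weights, −0.06 without the 3 arrays, −0.06 to 0.19 leaving out arrays or passages), TERT (−0.11 to 0.28) and CCL2 (−0.18 to 0.43). In all, 1600 of 1659 values of named genes kept their sign and side of the threshold, and 25 genes were called under some setting. The block changed no call in this comparison or in the difference of effects; for TNFα alone against vehicle it moved the count from 25 to 13. No detection calls were given, so differences of dim probes such as ADAMTS18, HSD11B2, CXCL5 and CCL26 have no signal limit beside them. The same holds for OASL, which was dim with IL1β. It also holds for NEK2 and MEST, whose means with both lay below the array median, at −2.20 and −0.15.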
